A study of Mus musculus with 8 samples.

Results

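Described here are 7 genes that the marrow stroma shares with the fat cell lineage, or that stand close to it: Adipoq, Lepr, Lpl, Pparg, Cebpa, Cebpb and Apoe. They were taken by name from the count tables of femoral stromal cells, and all 7 were among the 26180 genes kept. Mice of the C57BL/6 strain were compared in 2 groups. The Control group came from unfractured 12-week-old wild-type females, and the Fracture group from females of which the left leg had been broken by three-point bending at 10 weeks of age and fixed with an intramedullary nail (a hollow needle in the labels, a screw in the study's methods), with collection on day 14 after fracture. The nail lay in the marrow space of the Fracture bones and not of the Control bones, so the break and the nail cannot be told apart. Cells of the blood lineages and cells bearing CD45 or CD117 had been depleted with magnetic beads, and what was left was encapsulated with the Chromium 3′ v3 kit. Each group held 2 cell preparations, which are the replicates here (n = 2 per group), and each preparation gave 2 libraries, 8 libraries in all. The labels do not say how many animals a preparation held.

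Adipocytes and the reticular cells that line marrow sinusoids arise from mesenchymal progenitors that also give rise to osteoblasts. In the textbook sequence of fat cell formation Cebpb is induced early and, with its relatives, switches on Pparg and Cebpa, the nuclear receptor and the transcription factor that then keep each other on and drive the genes of the mature fat cell. Adipoq encodes adiponectin, a hormone secreted by fat cells, and in adult marrow it also marks the Cxcl12-rich reticular stroma. Lepr, the leptin receptor, marks the same perivascular stroma, a source of factors for blood stem cells. Lpl, lipoprotein lipase, releases fatty acids from circulating triglyceride, and Apoe, apolipoprotein E, carries lipid between cells and is made by many cell types, macrophages among them.

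The members lie apart in the genome (GENCODE M21, build GRCm38). Adipoq lies at chr16:23146536-23158028 on the plus strand, Lepr at chr4:101717404-101815352 (plus), Lpl at chr8:68880491-68907448 (plus), Pparg at chr6:115360951-115490399 (plus), Cebpa at chr7:35119293-35121928 (plus), Cebpb at chr2:167688915-167690418 (plus) and Apoe at chr7:19696109-19699188 (minus). Counts of the 3′ kit stand for the whole gene, so isoforms started from different promoters, as Pparg has, were not separated. After fracture Adipoq, Cebpa and Pparg were called lower in the cells named marrow stroma, as were Lepr, Lpl and Apoe, while Cebpb was not. Fewer cells of the type and less RNA in each cell cannot be told apart there. The windows around 4 start sites are shown, of Adipoq, Cebpa, Pparg and Cebpb. Each runs from 250 bases before to 50 bases after a start site (RefSeq, build GRCm38.p6), 5′ to 3′, with motif matches in capitals. The windows are chr16:23146286-23146585 for Adipoq, chr7:35119043-35119342 for Cebpa, chr6:115421816-115422115 for the most downstream start of Pparg and chr2:167688665-167688964 for Cebpb, all on the plus strand.
Adipoq: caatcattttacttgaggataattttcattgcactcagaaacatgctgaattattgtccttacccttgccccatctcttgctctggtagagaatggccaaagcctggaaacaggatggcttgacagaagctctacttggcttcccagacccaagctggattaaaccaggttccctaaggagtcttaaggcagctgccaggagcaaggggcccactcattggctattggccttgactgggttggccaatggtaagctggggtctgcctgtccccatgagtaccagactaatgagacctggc
Cebpa: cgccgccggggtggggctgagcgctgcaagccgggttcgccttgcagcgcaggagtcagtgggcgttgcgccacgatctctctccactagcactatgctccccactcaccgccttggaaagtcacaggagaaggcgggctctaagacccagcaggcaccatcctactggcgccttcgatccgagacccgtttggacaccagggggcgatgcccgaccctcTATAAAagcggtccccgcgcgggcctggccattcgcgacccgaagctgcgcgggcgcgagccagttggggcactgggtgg
Pparg: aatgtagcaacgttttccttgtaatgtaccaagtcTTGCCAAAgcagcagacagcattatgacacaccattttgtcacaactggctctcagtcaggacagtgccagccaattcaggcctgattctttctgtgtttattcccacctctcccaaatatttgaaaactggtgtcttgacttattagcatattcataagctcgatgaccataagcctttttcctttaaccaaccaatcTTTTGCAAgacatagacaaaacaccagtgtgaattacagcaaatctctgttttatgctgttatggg
Cebpb: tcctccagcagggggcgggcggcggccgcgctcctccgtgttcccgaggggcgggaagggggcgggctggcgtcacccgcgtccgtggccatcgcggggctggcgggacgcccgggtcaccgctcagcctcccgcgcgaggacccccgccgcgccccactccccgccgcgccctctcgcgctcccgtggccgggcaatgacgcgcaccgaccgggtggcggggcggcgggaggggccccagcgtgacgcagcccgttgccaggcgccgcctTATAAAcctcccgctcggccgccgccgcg
Searched on both strands were a C/EBP core (TTNNGCAA), the nuclear receptor half-site AGGTCA and the TATA box TATAAA, and no 2 matches overlap in the printed windows. The C/EBP core was present in 10.8% of 32851 windows of the table, the half-site in 16.3% and the TATA box in 13.6%. The Pparg window held the C/EBP core at -215 (minus strand) and at -16 (plus strand) from the start, the Cebpa window a TATA box at -30, the Cebpb window a TATA box at 21, and the Adipoq window none of the 3 motifs. Each match is a run of letters, not a shown site of binding. The other windows of Pparg, those of Lepr and Apoe are not printed, and Lpl was not matched in the table. Among the windows not printed, 1 of Pparg held the half-site at -28. Another of Pparg held it at -9, with a TATA box at -29 (minus strand). A window of Lepr held a C/EBP core at 19, and a window of Apoe TATA boxes at -100 (minus strand) and -96.

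The 8 libraries held between 56543151 and 89126291 UMIs (unique molecules counted), and the filters kept 45328 cells. Cells were clustered after the libraries had been integrated, with the members left out of the clustering genes, and the clusters were named from marker genes. Libraries shared at most 23 cell barcodes. BMSC-like cells are the marrow stroma and hold a dpMSC-like (diaphyseal, Cxcl12-rich) and an mpMSC-like (metaphyseal) subclass. They made up 28.3% and 34.6% of the stromal cells in Control and 7.76% and 7.85% in Fracture. Over all cells Control was shallower, with a median of 7711 UMIs against 11351 in Fracture, but deeper in osteoblast-like (19706 against 11574.5), chondrocyte-like (15093.5 against 12712) and basophil-like cells (9654 against 8272). The values below are CPM, UMIs of the gene scaled to a common total per class and preparation (counts per 1e6 UMIs), without further scaling, given for preparations 1 and 2 of each group in that order. The log2 fold changes (Fracture over Control, ± SE) come from edgeR with TMM scaling and are called at an adjusted p under 0.05. The SE was calculated back from the fold change and the F statistic of the edgeR test. Scaling by library size in place of TMM moved the median of all genes in BMSC-like cells by -0.209 and turned the split of calls from 3710 higher and 3642 lower into 2675 and 5165. In mpMSC-like cells the shift was -0.128 and the split moved from 1701 and 1500 to 1156 and 2210. The split also moved in dpMSC-like cells (3767 and 3673 to 2890 and 5154), chondrocyte-like cells (3298 and 3119 to 2209 and 4488), endothelial-like cells (2677 and 2437 to 2088 and 3342), osteoblast-like cells (1270 and 837 to 1401 and 557), fibroblast-like cells (912 and 906 to 733 and 1078) and all stromal cells (3676 and 4191 to 2310 and 6354).

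The Fracture cells of the dpMSC-like cluster went against that name for the most part, which bears on all values of dpMSC-like and BMSC-like cells below. When the libraries were clustered without integration, only 16 and 30 of the 424 and 459 Fracture cells of that cluster were again dpMSC-like, while 352 and 357 were fibroblast-like and 53 and 70 mpMSC-like. Of the Control cells of the cluster, 1661 of 1725 and 1225 of 1247 kept the name. Cxcl12, the chemokine that defines this stroma, stood at 33241 and 28576 CPM in the Control cells that kept the name and at 24412 and 25590 in the Fracture cells that did. It stood at 510 and 669 CPM in the Fracture cells that became fibroblast-like, which instead carried Postn, the matrix protein periostin and an mpMSC-like marker, at 2404 and 2226 CPM. In mpMSC-like cells the summed level of their 6 markers stood at 7994 and 7639 CPM in Control and 8836 and 8105 in Fracture. The cluster carried 3 of these 6 markers. Mmp13, a collagenase, made up most of the sum, with 5732 and 5630.4 CPM in Control and 6950.4 and 6233 in Fracture. Aspn went from 5.02 and 13.2 to 80.5 and 67.5 CPM. The rest of the sum, without Mmp13 and Aspn, was lower in Fracture. Of the mpMSC-like cells of Control 854 and 480, and of those of Fracture 413 and 441, had the same name without integration. In dpMSC-like and BMSC-like cells, fewer cells of the type and less RNA of a gene in each cell cannot be told apart.

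In unfractured bone 4 of the members were highest in BMSC-like cells among the 9 classes set in order. Adipoq stood at 2189 and 2237 CPM there, and the next class, endothelial-like cells, at 64.8 and 30.01 CPM, which overlapped smooth muscle-like cells at 56.3 and 28.5 CPM. Lepr stood at 1105 and 1357 CPM, followed by endothelial-like cells at 77.9 and 49.7 CPM, whose range overlapped that of fibroblast-like cells at 81.5 and 40.5 CPM. BMSC-like cells gave 93.4% and 98.1% of the Adipoq UMIs and 89.3% and 95.3% of the Lepr UMIs of the stromal cells. Lpl reached 4086 and 3710.45 CPM in BMSC-like cells and 708 and 728 CPM in smooth muscle-like cells, the class next in order. Apoe stood at 4159.6 and 4117 CPM in BMSC-like cells, 1424 and 1457 in endothelial-like cells and 723 and 919 in basophil-like cells, whose range overlapped the 769 and 675 CPM of chondrocyte-like cells. Within the BMSC-like cells all 6 members other than Cebpb were higher in both Control preparations of the dpMSC-like subclass than of the mpMSC-like subclass, Adipoq with 3521 and 3143 against 432 and 385 CPM.

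The transcription factors were spread more widely. Pparg was highest in endothelial-like cells (108 and 151 CPM), and then in smooth muscle-like cells (84.3 and 107 CPM), ahead of BMSC-like cells (70.5 and 73.0 CPM). The smooth muscle-like range lay just below that of endothelial-like cells, so these neighbours did not overlap by a small margin. Cebpa, which also acts in myeloid blood cells, was highest in basophil-like cells at 193 and 311 CPM, before BMSC-like cells at 179 and 166 CPM. Cebpb was highest in basophil-like cells too (574 and 538 CPM), and its levels in smooth muscle-like cells (360 and 174 CPM) and BMSC-like cells (243 and 173 CPM) overlapped. The basophil-like cluster carried 5 of 5 basophil markers, and also a 0.33 share of the neutrophil and of the monocyte and macrophage markers. Ctsg and Tyrobp were among its leading genes, so basophils and other myeloid cells cannot be told apart in it. The erythroid-like cells, which should lack the fat cell genes, still held Adipoq at 13.6 and 5.18 CPM and Apoe at 439 and 27.1 CPM in Control.

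**Figure D1:**
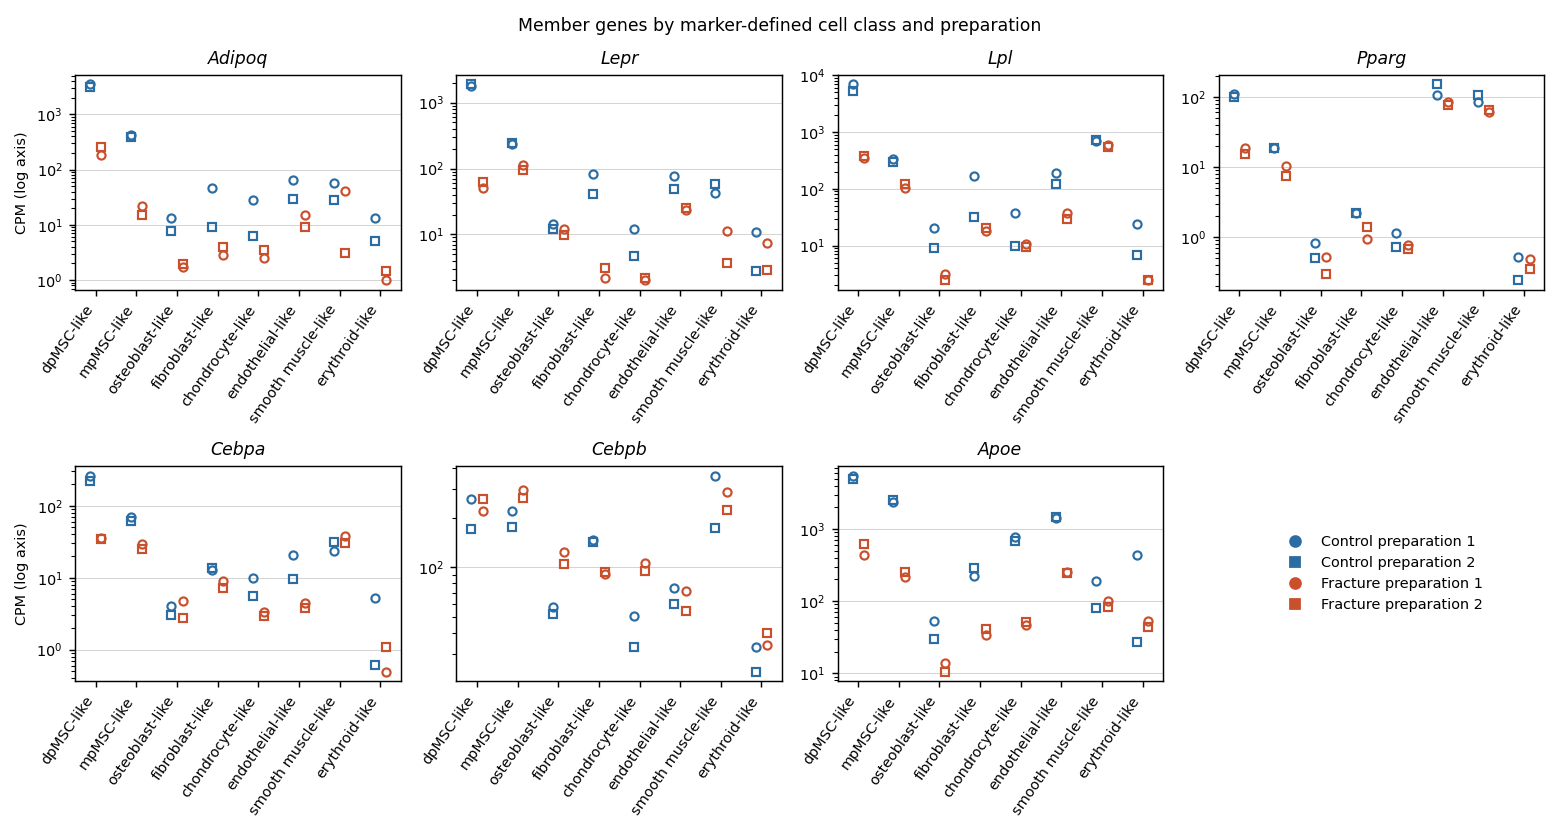
Level of each member in CPM on a log axis, by marker-defined class (each point is 1 preparation, circles preparation 1 and squares preparation 2, blue Control and red Fracture). In mpMSC-like cells Adipoq stands at 432 and 385 CPM in Control against 22.1 and 15.0 in Fracture, and only Cebpb is higher in Fracture.

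After fracture another class came first for Lpl and Apoe, and lower places changed for other members too. Smooth muscle-like cells took the first place for Lpl (597 and 536 CPM) before BMSC-like cells (239.6 and 254 CPM). Basophil-like cells took it for Apoe (753 and 972 CPM), before BMSC-like cells (336 and 448 CPM). Macrophage markers summed to 1224 and 1640 CPM in Control and 626 and 652 CPM in Fracture basophil-like cells. Of that list C1qa, C1qb, C1qc and Fcgr1 were too low to be tested in these cells. Ptprc was found in 65.8% of the cluster and Tyrobp was among its leading genes. The sum therefore does not tell macrophages from other myeloid cells. The part of macrophages in the Apoe values was not tested. Cebpa was now as high in smooth muscle-like cells (37.8 and 30.7 CPM) as in BMSC-like cells (33.0 and 29.7 CPM), whose ranges overlapped. BMSC-like cells stayed first for Adipoq and Lepr, and endothelial-like cells for Pparg, with 84.8 and 77.0 CPM.

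In mpMSC-like cells 6 of the 7 members fell and Cebpb rose. Markers of other cell types also differed between the groups in this class. The chondrocyte markers summed to 1057 and 724 CPM in Control and 2335 and 2410 CPM in Fracture. The 7 osteoblast markers summed to 13761 and 13231 CPM in Control and 14683 and 14905 CPM in Fracture, with Ibsp, a bone matrix protein, at 8675 and 8281 against 12160 and 12025 CPM and Bglap, osteocalcin, at 1961 and 1925 against 530.4 and 789 CPM. Immediate early genes, a list of 9 with Fos and Jun that cell dissociation also induces, summed to 1716 and 1118 CPM in Control and 3082 and 3041 CPM in Fracture. The part of these genes in the members' values was not tested. Over all genes tested in this class 12.3% were called lower and 13.9% higher. Adipoq went from 432 and 385 CPM in Control to 22.1 and 15.0 CPM in Fracture (log2 fold change -4.34 ± 0.20, adjusted p = 0.00141 by edgeR). Apoe went from 2384 and 2493 to 213 and 254 CPM (-3.26 ± 0.13, adjusted p = 0.00141). Both genes were far apart between the groups, with every Fracture value under every Control value.

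The receptor, the lipase and the nuclear receptor fell less. Lepr went from 237 and 248 CPM to 114 and 96.4 CPM (-1.08 ± 0.10, adjusted p = 0.00419). Lpl went from 337 and 302 to 103 and 121 CPM (-1.39 ± 0.12, adjusted p = 0.00332). Pparg, a low gene here, went from 18.4 and 18.5 to 10.3 and 7.38 CPM (-0.94 ± 0.20, adjusted p = 0.0263), and its call was lost with DESeq2 (adjusted p = 0.106) and without either Fracture preparation (0.0666 and 0.116). Its groups did not overlap.

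Cebpa and Cebpb, which encode relatives of the C/EBP family, went in opposite directions in these cells. Cebpa went from 69.2 and 61.5 CPM to 29.2 and 24.8 CPM (-1.15 ± 0.12, adjusted p = 0.00566). Cebpb went from 220.1 and 176 CPM to 295 and 263 CPM (0.62 ± 0.12, adjusted p = 0.0221), a call that was lost without Fracture preparation 1 (adjusted p = 0.12) or Fracture preparation 2 (0.0798). All 4 Control and Fracture ranges of these genes were separate.

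The calls in mpMSC-like cells were held against the cells named alike with and without integration, where 10.3% of genes tested were lower. All 7 members were called there in the same direction, with log2 fold changes of -4.14 for Adipoq, -3.07 for Apoe, -0.97 for Lepr, -1.30 for Lpl, -0.80 for Pparg, -1.04 for Cebpa and 0.66 for Cebpb. Clustering without integration, which moves Fracture cells of the dpMSC-like cluster into this class, lowered the size of the fall of Adipoq to -2.29 and that of Apoe to -2.54, both still called. The dpMSC-like markers moved with these falls within the class. Their summed level went from 7310.5 and 7926 CPM to 1421 and 1364 CPM and that of Cxcl12 from 5468 and 5889 to 1053 and 1001 CPM, so a dpMSC-like share among the Control mpMSC-like cells and a lower level in each cell cannot be told apart. The 9 macrophage markers measured summed to 21.5 and 13.2 CPM in Control and 4.47 and 6.71 in Fracture, with C1qa between 0 and 1.12 CPM, beside Apoe values of at least 213 CPM.

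**Figure D2:**
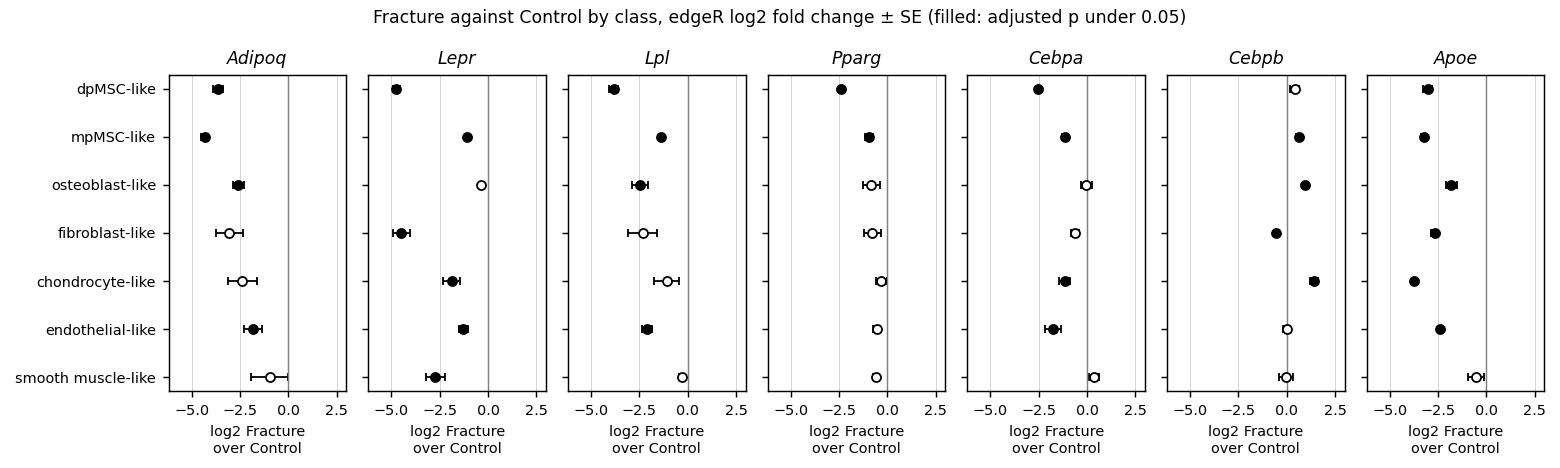
Log2 fold change of each member, Fracture over Control, by class, from edgeR (points are estimates, bars the SE, filled points adjusted p under 0.05). Adipoq and Apoe lie between -4.34 and -3.05 in both marrow stroma subclasses, and Cebpb lies on the other side of 0 in mpMSC-, osteoblast- and chondrocyte-like cells.

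In BMSC-like cells 6 of the 7 members fell, against 25% of all genes tested called lower and 25.5% called higher. Adipoq went from 2189 and 2237 CPM to 111 and 145 CPM (-3.90 ± 0.19, adjusted p = 0.000939). Lepr went from 1105 and 1357 CPM to 79.5 and 79.0 CPM (-3.75 ± 0.14, adjusted p = 0.000817). Lpl went from 4086 and 3710.45 CPM to 239.6 and 254 CPM (-3.77 ± 0.14, adjusted p = 0.000817). Apoe, the lipid carrier, went from 4159.6 and 4117 CPM to 336 and 448 CPM (-3.19 ± 0.21, adjusted p = 0.00129). Among the regulators Pparg went from 70.5 and 73.0 to 14.8 and 11.4 CPM (-2.24 ± 0.14) and Cebpa from 179 and 166 to 33.0 and 29.7 CPM (-2.25 ± 0.09). In these 6 genes the 2 Fracture preparations differed from each other far less than from Control.

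Cebpb stood at 243 and 173 CPM in Control BMSC-like cells and at 253 and 262 CPM in Fracture (0.52 ± 0.17, adjusted p = 0.0595). It was past the threshold with DESeq2 (adjusted p = 0.00604), with a log2 fold change of 0.79 without Control preparation 1 and with one of 0.29 without Control preparation 2. With the classes as first named its log2 fold change was -0.17, which was not called (adjusted p = 0.455). The immediate early genes summed to 1564 and 1465 CPM in Control and 3191 and 3286 CPM in Fracture BMSC-like cells. In chondrocyte-like cells, where Cebpb was called higher, their sums overlapped, at 7234 and 5835 CPM in Control and 6772 and 6543 CPM in Fracture, with Junb and Atf3 called higher and Hspa1a and Hspa1b lower. Their part in the Cebpb values was not tested.

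In dpMSC-like cells as integrated 6 of the 7 members were called lower, against 26.9% of genes tested (27.6% were higher). Adipoq was at 3521 and 3143 CPM in Control and 183 and 262 CPM in Fracture (-3.65 ± 0.24), Lepr at 1763 and 1899 against 51.5 and 63.4 CPM (-4.75 ± 0.18), and Lpl at 6927 and 5377 against 352 and 373 CPM (-3.84 ± 0.22). Apoe was at 5505 and 4911 against 437 and 622 CPM (-3.05 ± 0.25). Splitting the Fracture cells of this cluster by their name without integration gave levels that differed by orders of size, and these values carry no test.

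The 16 and 30 Fracture cells named dpMSC-like both ways held Adipoq at 4887 and 3768 CPM, above the 3560.2 and 3180.07 CPM of the Control cells named so both ways. Lpl stood at 5793 and 4643 CPM in them against 7086 and 5406 in Control, and Apoe at 7023 and 6364 against 5521 and 4956. Lepr was at 816 and 882 CPM against 1797 and 1927, below both Control values. Cebpa was at 403 and 223 CPM against 266 and 218, from 36 and 37 UMIs, and Pparg at 302 and 84.5 CPM against 111 and 100.1, from 27 and 14 UMIs. Cebpb was at 369 and 320.02 CPM against 266 and 172. The cluster that chose these few cells was made up almost wholly of Control cells, so nearness to the Control level was in part what chose them. Chondrocyte markers summed to 8510.2 and 5126 CPM in them against 549 and 229.7 in the Control cells, and the part of RNA from other cells was not tested.

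The Fracture cells of the same cluster that were mpMSC-like without integration (53 and 70 cells) stood between, with Adipoq at 1088 and 848 CPM, Lpl at 1700.3 and 1209 CPM and Apoe at 3043 and 1993 CPM. Those that were fibroblast-like (352 and 357 cells) held Adipoq at 8.40 and 54.3 CPM, Lepr at 5.76 and 7.23 CPM, Lpl at 115 and 110.3 CPM and Apoe at 82.4 and 239.9 CPM. Cebpb did not follow this order, with 369 and 320.02 CPM in the cells named dpMSC-like both ways, 237 and 211 in the mpMSC-like and 216 and 266 in the fibroblast-like cells. The cells named dpMSC-like both ways, 3.77% and 6.54% of the Fracture cells of the cluster, held 51.4% and 47.9% of its Adipoq UMIs and 30.9% and 34.1% of its Apoe UMIs.

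**Figure D3:**
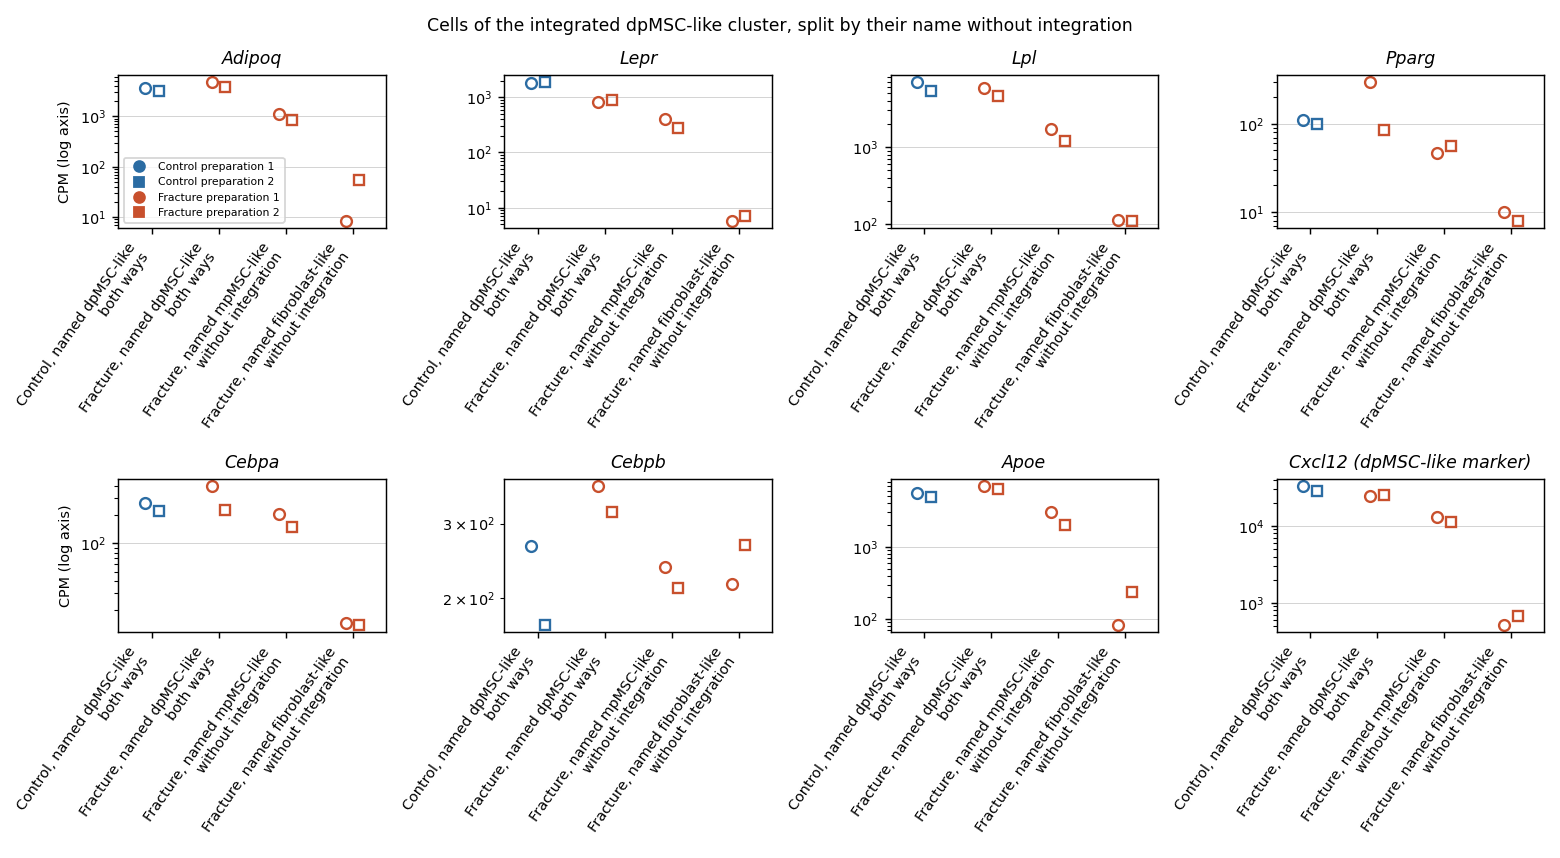
Cells of the integrated dpMSC-like cluster split by their name in a clustering without integration, with CPM on a log axis (each point is 1 preparation). Adipoq stands at 4887 and 3768 CPM in the Fracture cells named dpMSC-like both ways and at 8.40 and 54.3 CPM in those named fibroblast-like without integration, and Cxcl12 falls over the same cells.

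The values in BMSC-like cells were also computed at a fixed makeup of the subclasses as integrated. The dpMSC-like cells gave 56.9% and 67.2% of the BMSC-like UMIs in Control and 54.99% and 52.65% in Fracture. With each preparation set to the mean Control makeup, the log2 ratio of the means was -3.94 for Adipoq (-4.11 at its own makeup), -4.02 for Lepr (-3.96), -3.88 for Lpl (-3.98), -3.32 for Apoe (-3.40) and 0.28 for Cebpb (0.31). This holds for the clusters as named, and not for the kinds of cell within the dpMSC-like cluster.

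At the level of single cells Adipoq, Apoe and Lpl were found in a far smaller share of BMSC-like cells as integrated after fracture. That class counts the 352 and 357 Fracture cells that were fibroblast-like without integration, so a change of cells and of level cannot be told apart. Each cell was thinned to 1000 UMIs, which left out 68 of 4319 Control and 0 of 1869 Fracture BMSC-like cells. Adipoq was then found in 63.1% and 66.4% of Control BMSC-like cells and in 4.91% and 7.30% of Fracture cells. Apoe was found in 80.6% and 80.8% against 10.5% and 15.2%, and Lpl in 71.2% and 73.1% against 12.6% and 15.1%. For each gene the groups were separate, and the two-sided exact permutation test gave p = 0.333, the smallest that 2 against 2 preparations allow. In erythroid-like cells Adipoq was found in 1.77% and 0.621% of Control cells and Apoe in 17.5% and 3.95%, and in Fracture Apoe in 2.86% and 2.13%. The median depths were 5817 UMIs for Control and 8272 for Fracture BMSC-like cells, and 6266 and 7263 for erythroid-like cells. Without thinning Adipoq was found in 71.1% and 77.7% against 8.04% and 11.6% of BMSC-like cells.

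In mpMSC-like cells at 1000 UMIs Adipoq was found in 19.5% and 17.7% of Control cells and 1.06% and 1.17% of Fracture cells. In Fracture erythroid-like cells Adipoq stood at 0.995 and 1.43 CPM, against 22.1 and 15.0 CPM in Fracture mpMSC-like cells, and without thinning it was found in 0.952% and 1.42% of the former and 3.602% and 5.06% of the latter. Lepr was found in 22.8% and 23.0% against 10.6% and 9.14%, Lpl in 21.9% and 18.7% against 6.36% and 6.23%, and Apoe in 53.2% and 51.7% against 8.05% and 12.1%. Cebpb was the only member found in more Fracture than Control cells, with 17.6% and 13.8% against 25.4% and 20.2%. Pparg was the only one whose groups overlapped, at 2.94% and 1.64% against 1.91% and 0.584%.

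The members were found together in Control marrow stroma. A BMSC-like cell at 1000 UMIs held a mean of 3.18 and 3.20 of the 7 members in Control and 0.646 and 0.713 in Fracture, and no member was found in 10.0% and 9.52% of Control cells and 57.5% and 56.8% of Fracture cells. Of the cells with Adipoq, 93.1% and 91.9% also held Lpl in Control and 81.8% and 78.9% in Fracture, out of 44 and 71 such Fracture cells. Apoe was found in 96.2% and 94.8% of the cells with Adipoq in Control and 93.2% and 87.3% in Fracture. Lepr was found in 77.5% and 79.7% of them in Control and 43.2% and 39.4% in Fracture, so that the few Fracture cells with Adipoq kept Lpl and Apoe close to the Control share and Lepr less so.

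**Figure D4:**
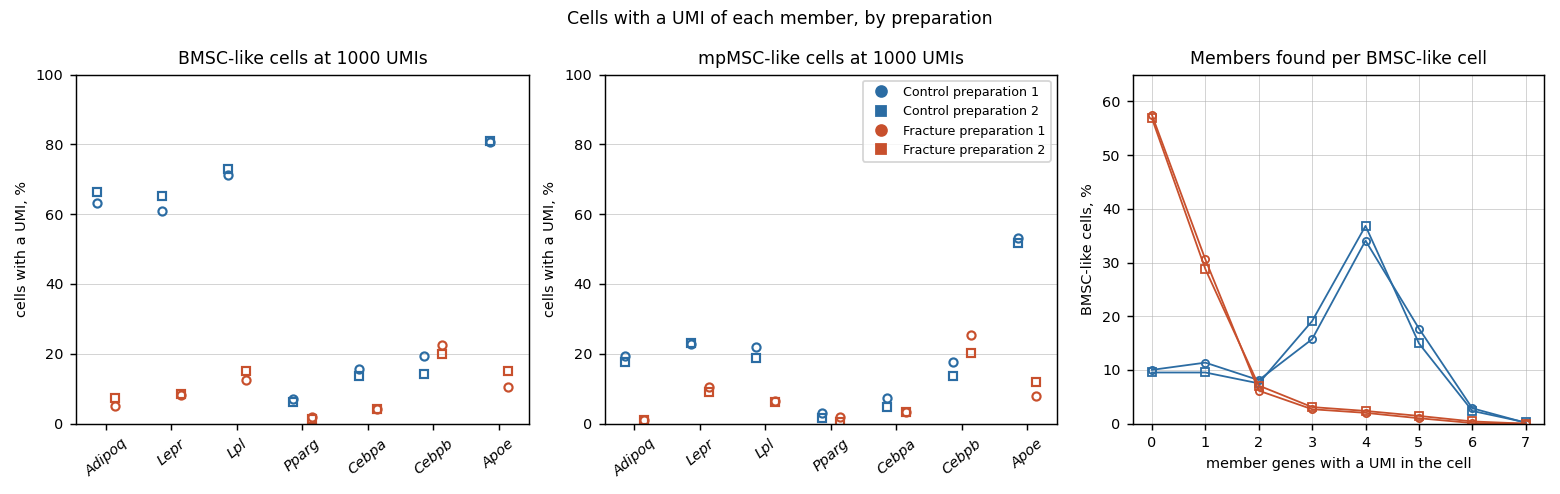
Share of BMSC-like (left) and mpMSC-like (middle) cells with a UMI of each member after thinning to 1000 UMIs, and the share of BMSC-like cells by how many members they held (right), for each preparation. Most Control cells hold 3 to 5 members and 57.5% and 56.8% of Fracture cells hold none.

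Outside the marrow stroma the members divided. In chondrocyte-like cells 18.0% of genes tested were lower and 19.1% higher, and 3 members were called lower and 1 higher. Apoe went from 769 and 675 CPM to 46.7 and 51.2 CPM (-3.73 ± 0.10, adjusted p = 0.000895), Lepr from 12.1 and 4.63 to 2.01 and 2.20 CPM (-1.88) and Cebpa from 9.76 and 5.61 to 3.32 and 2.98 CPM (-1.17). Lepr stood at 11.0 and 2.78 CPM in Control and 7.46 and 2.87 CPM in Fracture erythroid-like cells, so that the Control ranges of the classes overlapped and the Fracture values of chondrocyte-like cells lay below those of a class that should lack the gene. Apoe stood at 52.2 and 43.7 CPM in Fracture erythroid-like cells, which overlapped the Fracture chondrocyte-like values. Fracture osteoblast-like cells held less, at 13.9 and 10.6 CPM, so the erythroid-like level is not a floor common to all classes. How far RNA from other cells limits the size of the fall of Apoe was not tested. Cebpb rose from 51.0 and 33.1 CPM to 106 and 95.5 CPM (1.41 ± 0.21, adjusted p = 0.0124). These cells were 2069 and 677 in Control and 6815 and 7141 in Fracture. They came from 2 clusters, of which the one led by Serpina1 genes held 843 and 260 of the Control cells and 1132 and 1167 of the Fracture cells, so that the makeup of the class differed between groups, and its part in the members' values was not tested. The calls of Lepr, Cebpa and Cebpb were lost without either Fracture preparation, while that of Apoe was kept.

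In endothelial-like cells, against 17.1% of genes tested, 5 members were lower. Apoe went from 1424 and 1457 CPM to 252 and 246 CPM (-2.41 ± 0.08, adjusted p = 0.00422) and Lpl from 193 and 122 to 37.8 and 29.4 CPM (-2.11 ± 0.26). Cebpa (-1.765) and Lepr (-1.28) were lower too. Adipoq was at 64.8 and 30.01 CPM against 15.4 and 9.20 (-1.83), and without called doublets at -0.39, which did not pass (adjusted p = 0.509), and neither did Lepr at -0.76 (0.0603). Pparg, which acts in endothelium as well, stood at 108 and 151 CPM against 84.8 and 77.0 CPM (-0.56 ± 0.18, adjusted p = 0.0714). The macrophage markers in these cells summed to 304 and 407 CPM in Control and 71.4 and 74.2 CPM in Fracture, nearly all of it from Mrc1 (283 and 399.7 against 59.1 and 60.1 CPM), which was among the leading genes of the endothelial-like cluster. The defining macrophage markers C1qa, C1qb, C1qc and Csf1r stood under 1 CPM in every preparation, and Cd68 was called higher (3.04 and 1.97 against 8.36 and 11.1 CPM). Kinds of endothelial cell were not separated in this class, and the part of its makeup in the members' values was not tested. Without either Fracture preparation 0 genes were called in this class by edgeR, with 3971 and 4284 at an unadjusted p under 0.05.

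In osteoblast-like cells 6.17% of genes tested were lower and 9.36% higher. Adipoq (13.2 and 7.76 against 1.73 and 1.92 CPM, -2.59 ± 0.29), Lpl (20.5 and 9.04 against 3.18 and 2.47 CPM, -2.47 ± 0.41) and Apoe (52.4 and 29.5 against 13.9 and 10.6 CPM, -1.82 ± 0.28) were called lower. In erythroid-like cells Adipoq stood at 13.6 and 5.18 CPM in Control and Lpl at 24.0 and 6.73 CPM, levels like those of osteoblast-like cells, and Apoe at 439 and 27.1 CPM in Control and 52.2 and 43.7 CPM in Fracture, at or above most osteoblast-like values. Cebpb rose from 57.7 and 52.0 CPM to 124 and 104 CPM (0.97 ± 0.09, adjusted p = 0.00764). The immediate early genes summed to 1297 and 1344 CPM in Control and 5244 and 4917 CPM in Fracture in this class. Without either Fracture preparation calls were lost over all genes in this class, these members included.

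In fibroblast-like cells, against 7.31% of genes tested, Lepr (81.5 and 40.5 against 2.16 and 3.05 CPM, -4.49 ± 0.43), Apoe (225 and 286 against 33.9 and 41.3 CPM, -2.68 ± 0.18) and Cebpb (146 and 143 against 90.8 and 93.0 CPM, -0.57 ± 0.10, adjusted p = 0.0312) were lower. Fracture erythroid-like cells held Lepr at 7.46 and 2.87 CPM and Apoe at 52.2 and 43.7 CPM. The Lepr values there rest on 15 and 8 UMIs. Whether RNA from other cells limits the size of the falls of Lepr and Apoe was not tested. Cebpb was thus lower here and higher in mpMSC-, osteoblast- and chondrocyte-like cells. Its call in this class was lost without integration (-0.05) and with finer subclusters (-0.19). Without either Fracture preparation calls were lost over all genes, these 3 included. The 6 fibroblast markers summed to 18366 and 20973 CPM in Control and to 5955 and 6016 CPM in Fracture, most of it from Prg4, lubricin (15400 and 17490.1 against 2648 and 3008 CPM), while Dpt (145 and 146 against 486 and 469.97 CPM) and Mfap5 (259.8 and 373 against 864 and 740.01 CPM) were higher in Fracture. Chondrocyte markers summed to 4565 and 3896 CPM in Control and 14114 and 12723 CPM in Fracture in these cells, and the cluster carried 6 of 7 chondrocyte markers beside 5 of 6 fibroblast markers. The part of these differences in the members' values was not tested.

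Smooth muscle-like cells held Lpl at 708 and 728 CPM in Control and 597 and 536 CPM in Fracture (-0.32 ± 0.13, adjusted p = 0.135). Only Lepr was called lower, from 42.4 and 58.5 to 11.1 and 3.68 CPM (-2.73 ± 0.48), against 11.8% of genes tested. Its Fracture values overlapped those of erythroid-like cells (7.46 and 2.87 CPM, from 15 and 8 UMIs). Whether RNA from other cells limits the size of the fall of Lepr was not tested. The Lepr call was lost without either Fracture preparation, where calls over all genes were also lost or fewer. Pparg stood at 84.3 and 107 against 60.6 and 64.4 CPM (-0.58 ± 0.17, adjusted p = 0.0608). Over all stromal cells together 6 members were lower, against 21.2% of genes tested, Adipoq from 376 and 515 CPM to 10.6 and 12.2 CPM, and Cebpb was at 103 and 81.4 against 116 and 104 CPM (0.46, adjusted p = 0.0745). That comparison also counts the smaller share of BMSC-like cells. Without Fracture preparation 1 its calls were lost over all genes, the members included.

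In the blood classes that remained after depletion edgeR called 0 genes and gave 2637 genes at an unadjusted p under 0.05 in basophil-like, 2164 in erythroid-like and 2196 in megakaryocyte-like cells. DESeq2 called 1118, 817 and 1010 genes in these classes, and edgeR with no filter on low counts 484, 1669 and 1409. Without called doublets edgeR called 215, 0 and 291. Apoe in basophil-like cells was at 723 and 919 CPM in Control and 753 and 972 CPM in Fracture, which overlapped. Cebpb there was at 574 and 538 against 383 and 339 CPM and Cebpa at 193 and 311 against 111 and 91.8 CPM, with groups that did not overlap and adjusted p of 0.0956 and 0.115. These values rest on 88 and 84 Fracture cells.

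Whether the change with fracture differed between classes was tested in 1 fit over both classes, blocked on the preparation. BMSC-like cells differed from chondrocyte-like cells in all 7 members (43.7% of all genes tested), from osteoblast-like cells in all 7 (36.3%), from endothelial-like cells in 6, Cebpa excepted (26.1%), from smooth muscle-like cells in 5 (18.4%) and from fibroblast-like cells in 3 (20.2%). For Lpl the fall was larger in BMSC-like than in smooth muscle-like cells (difference -3.497 ± 0.15 on the log2 scale). For Apoe it was smaller than in chondrocyte-like cells, by 0.51 ± 0.13, where the Fracture values were at the level of erythroid-like cells. Pparg stood at 0.819 and 0.514 CPM in Control and 0.520 and 0.296 CPM in Fracture osteoblast-like cells, and at most 1.13 CPM in chondrocyte-like cells. Adipoq and Lpl in Control osteoblast-like cells were at levels like those of erythroid-like cells. The differences for these genes thus compare BMSC-like cells with very low or background-like levels. Between the marrow subclasses as named, dpMSC-like and mpMSC-like cells differed in 5 members (30.2% of genes tested). Lepr fell further in dpMSC-like cells (difference -3.66 ± 0.14), as did Lpl, Cebpa and Pparg, while Adipoq fell further in mpMSC-like cells (0.69 ± 0.19). These differences with the BMSC- or dpMSC-like class carry the mixed names of its Fracture cells.

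Other genes of the fat cell programme were read from 9 lists, here by count beside the shares of all genes given above. Of 14 adipogenic transcription factors 10 were lower in BMSC-like cells and 0 higher (median log2 fold change -1.04), and in mpMSC-like cells 4 of 11 tested were lower and 0 higher (-0.49). Ebf3, needed for the reticular state of marrow stroma and itself a BMSC-like marker used in naming, went from 489 and 508 CPM to 45.6 and 50.2 CPM in BMSC-like cells (-3.17) and from 146 and 163 to 42.9 and 39.4 CPM in mpMSC-like cells (-1.79). Nr1h3, the lipid-sensing receptor LXR alpha, was lower in BMSC-like cells (-2.23), as was Stat5a (-2.18), and Ebf1 was lower in mpMSC-like cells (-0.96). In dpMSC-like cells 10 of 13 were lower, led by Ebf3 (-3.48), Nr1h3 (-2.60) and Stat5a (-2.56).

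Inhibitors of fat cell formation were called in both directions in BMSC-like and dpMSC-like cells, near the shares over all genes. In BMSC-like cells 2 of 8 tested rose and 2 fell, with Wwtr1, the cofactor TAZ, at 0.84, Ddit3, a C/EBP family member, at -0.86 and Ncor1, a corepressor, at -0.34. In mpMSC-like cells 0 rose and 3 fell (Ddit3 -0.85 and Ncor1 -0.26 among them). In dpMSC-like cells 3 of 8 rose, with Wwtr1 at 1.196 and Klf2 at 0.84, and 2 fell, Ddit3 (-0.85) and Ncor1 (-0.44).

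In the marrow stroma few genes of the lipid droplet and of the mature fat cell were called. Of 17, 11 were tested in BMSC-like cells, where 2 rose, Mgll, a lipase for monoglycerides (0.55), and Plin2, a droplet coat protein (0.33), and 1 fell, G0s2, an inhibitor of fat breakdown (-1.01). In mpMSC-like cells 7 were tested and 0 called. Plin1, the droplet coat protein of mature fat cells, is added after its values were seen, and stood at 1.83 and 1.498 CPM in Control and 2.01 and 1.48 CPM in Fracture BMSC-like cells, so that this defining marker of ripe fat cells was near 0 in both groups. In dpMSC-like cells 2 of 11 rose (Mgll 3.07, Plin2 0.47) and 2 fell (G0s2 -0.98, Dgat1 -0.47).

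Of the genes of fatty acid synthesis and activation more were called higher than lower in the marrow stroma, with list medians of 0.08 in BMSC-like and 0.05 in dpMSC-like cells, and in chondrocyte-like cells 1 of 11 rose and 5 fell. In mpMSC-like cells 4 of 10 genes tested rose and 0 fell (median 0.51), among them Fasn, fatty acid synthase, from 19.0 and 16.1 CPM to 29.5 and 27.3 CPM (0.81), and Scd2, a desaturase, from 89.2 and 69.2 to 128 and 118 CPM (0.76). In BMSC-like cells 4 of 11 rose, with Scd2 at 1.46 and Fasn at 1.33, and Acaca, acetyl-CoA carboxylase, fell (-0.58). In dpMSC-like cells 5 of 11 rose (Scd2 2.04, Me1 1.84, Fasn 1.69) and 3 fell, with Acaca at -0.62 and Acsl4 at -0.39.

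Partners of Lpl and genes of fatty acid uptake were mixed. In BMSC-like cells 2 of 9 tested rose, Angptl2 (2.22) and Lmf1, a maturation factor of lipases (0.54), and 1 fell, Sel1l, which also acts in lipase maturation (-0.59). In mpMSC-like cells Angptl2 rose (0.95), while Sel1l (-0.58) and Vldlr, a receptor that binds Apoe (-0.57), fell, out of 7. In dpMSC-like cells 3 of 9 rose (Angptl2 2.65, Lmf1 0.62) and 2 fell, Angptl4, an inhibitor of Lpl (-0.96), and Sel1l (-0.56).

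Of the 12 genes of Apoe receptors and cholesterol handling 5 rose and 1 fell in BMSC-like cells (median 0.43), with Lrp1, an Apoe receptor, at 0.38. In mpMSC-like cells 2 of 10 rose (Npc2 0.33) and 1 fell, Abca1, a cholesterol exporter, from 74.7 and 71.3 CPM to 48.1 and 48.5 CPM (-0.47). In dpMSC-like cells 6 of 12 rose (Apod 0.67 and Lrp1 0.64 among them) and 1 fell.

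Receptors and signalling genes of adiponectin and leptin were called in both directions in BMSC-like and dpMSC-like cells. The rises in BMSC-like cells were near the share over all genes. In BMSC-like cells 3 of 12 rose and 5 fell, with Adipor1, an adiponectin receptor, at 0.52, Adipor2, the other receptor, at -0.94, Leprot at 0.27, Stat3 at -0.37 and Jak2 at -0.35. In mpMSC-like cells 2 of 12 rose and 0 fell, and Socs3, a feedback inhibitor of cytokine receptors that leptin induces, went from 178 and 172 CPM to 414 and 379 CPM (1.31). In dpMSC-like cells 1 rose, Adipor1 (0.67), and 4 fell, Adipor2 (-1.15), Ptpn1 (-0.57) and Stat3 (-0.54) among them. With scaling by library size the named rises of Mgll, Plin2, Lmf1, Lrp1 and Leprot in BMSC-like cells, of Klf2, Plin2, Lmf1, Apod and Lrp1 in dpMSC-like cells and of Angptl2 and Npc2 in mpMSC-like cells kept their direction and were not called.

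The immediate early genes rose in 7 of 9 in BMSC-like, 9 of 9 in dpMSC-like and 6 of 9 in mpMSC-like cells (medians 1.36, 1.58 and 1.26). Atf3 went from 5.49 and 2.40 CPM to 48.4 and 45.4 CPM in mpMSC-like cells (3.63) and was at 3.78 in BMSC-like cells, and Fos, Fosb, Junb and Ier2 were among the others. Of 10 macrophage markers 4 were tested in BMSC-like cells and 1, Tyrobp, fell (-3.10), as it did among 2 tested in mpMSC-like cells (-4.16), and it is named after its values were seen, and in dpMSC-like cells 0 of 4 were called.

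The genes most like each member were found over 24 sums of a class and a preparation, among 6573 genes, by Pearson's correlation of log2(CPM + 1). The points share preparations and depth, so the values describe the ranking only. Adipoq was most like Dpep1 (0.97), Trf (0.96) and Kng1 (0.96), Lepr like Trf (0.90) and Aldh1a2 (0.90) among others, and Lpl like Atn1 (0.95), Fam69a (0.95) and Wdr86 (0.94). Pparg was most like Rbpms (0.975), Rexo1 (0.970) and Nrp1 (0.969), Cebpa like Ggt5 (0.96), Il1rn (0.95) and Man2a2 (0.95), Cebpb like Meis2 (0.91), Mrps15 (0.885) and Fst (0.87), and Apoe like Stat5b (0.91), Zfp207 (0.91) and Dennd1b (0.91). Among the members themselves the pair Cebpa and Lpl stood at 0.94 and Adipoq and Lepr at 0.92, while Cebpb and Apoe stood at 0.07.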

How the data were processed

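Count tables of 8 single-cell libraries were used. Per the labels, the authors' processing notes name bcl2fastq 2.19.1.403, UMI-tools 1.0.0, STAR 2.7.3a and featureCounts 1.6.4 on build mm10, and the study's methods also describe STARsolo with EmptyDrops. Which of these made the deposited counts, and whether strand was used, was not settled. The deposited values are whole UMI counts per gene and cell, not normalized. Control tables reach down to 1 UMI per barcode, whereas the smallest Fracture barcode has 1929. Cells with 500 to 6000 genes and at most 25% mitochondrial UMIs were kept (85.6% of Control and 99.6% of Fracture barcodes), with genes in at least 3 cells. Clustering used Seurat 5.3.0 with integration (12 components, resolution 0.1; subclasses 13 and 0.08), with the members left out. Scrublet called 722 doublets (1.59%), which were kept in the main result and removed in an alternative. UMIs were summed per class and preparation, the 2 libraries together, and tested with edgeR 4.0.16 (quasi-likelihood, TMM, Benjamini-Hochberg adjustment over all genes tested), with DESeq2 1.42.0 as an alternative. In simulated data few genes were changed, equally up and down, with the same spread set for every gene. There 97% of 4-fold and 72% of 2-fold changes were recovered in BMSC-like, 98% and 67% in dpMSC-like and 98% and 54% in mpMSC-like cells. Of the calls 2.87%, 2.94% and 3.80% were false. Far more genes differed in the real data, so these rates need not hold for them. The labels do not say that preparations are separate animals, so p-values measure only the spread between these samples, which may be technical. Members and lists were chosen with earlier results of these data known, and the naming of classes, the classes as first named and the split of the dpMSC-like cluster were set after the clusters were seen. List genes were named by a rule, up to 3 called genes of largest change per list, direction and class with a mean of at least 20 CPM, and some genes that the naming rules gave are not reported here. Other alternatives were library-size scaling, no filter on low counts, another depth or mitochondrial cutoff, clustering without integration, with the members or at another resolution, and leaving out each preparation. Shares of cells cover counting error only.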

Additional observations from a re-analysis of the deposited data

Results flagged for a closer look

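The change with fracture differed between classes for the members below, by the class-by-group test of edgeR with the preparation as a block (adjusted p under 0.05). Each value is the log2 fold change in BMSC-like cells minus that in the other class, or in dpMSC-like minus mpMSC-like cells. Against chondrocyte-like cells it was -1.62 for Adipoq, 0.512 for Apoe, -1.06 for Cebpa, -0.912 for Cebpb, -1.82 for Lepr, -2.81 for Lpl and -1.93 for Pparg. Against endothelial-like cells it was -2.13 for Adipoq, -0.798 for Apoe, 0.525 for Cebpb, -2.49 for Lepr, -1.70 for Lpl and -1.72 for Pparg. Against fibroblast-like cells it was -0.578 for Apoe, -1.68 for Cebpa and 1.04 for Cebpb. Against osteoblast-like cells it was -1.31 for Adipoq, -1.41 for Apoe, -2.21 for Cebpa, -0.456 for Cebpb, -3.38 for Lepr, -1.33 for Lpl and -1.40 for Pparg. Against smooth muscle-like cells it was -2.89 for Adipoq, -2.75 for Apoe, -2.70 for Cebpa, -3.50 for Lpl and -1.73 for Pparg. In dpMSC-like minus mpMSC-like cells it was 0.691 for Adipoq, -1.37 for Cebpa, -3.66 for Lepr, -2.44 for Lpl and -1.46 for Pparg. The value for Adipoq against smooth muscle-like cells rests on Fracture preparation 1, in which those cells held 41.0 CPM against 3.07 in Fracture preparation 2. The values for Pparg against chondrocyte- and osteoblast-like cells compare with levels of at most 1.13 and 0.819 CPM there. Those for Adipoq and Lpl against osteoblast-like cells compare with Control levels like those of erythroid-like cells. The Fracture cells of the dpMSC-like cluster, and so of the BMSC-like class, were mostly named otherwise without integration.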

How the results depend on the processing

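Of 46 pairs of member and class tested (BMSC-, chondrocyte-, endothelial-, smooth muscle-, basophil-, erythroid- and megakaryocyte-like cells), 16 were called, and 26 with no filter on low counts; leaving out 1 preparation gave 7 to 26 (25 without Control preparation 1, 26 without Control preparation 2, and 7 without either Fracture preparation). Of 28 pairs in the subclasses (dpMSC-, mpMSC-, osteoblast- and fibroblast-like cells) 20 were called, and 11 to 23 with 1 preparation left out (11 without either Fracture preparation). Over all stromal cells 6 members were called, and 0 to 7 with 1 left out (0 without Fracture preparation 1). Of 42 differences between classes 33 were called, and 27 to 36 with 1 left out. Pparg in fibroblast-like cells reversed without integration, with a log2 fold change of 2.06 (adjusted p = 0.0439). In the main clustering it rested on 7 and 3 UMIs in Control and 7 and 13 in Fracture. The Fracture cells of the dpMSC-like cluster that were fibroblast-like without integration held 42 and 34 Pparg UMIs. The difference for Adipoq between BMSC-like and smooth muscle-like cells reversed without Fracture replicate 1, at 0.0946 (adjusted p = 0.955), and was -4.04 without Fracture replicate 2. The cause of these changes was not tested. Deviations of samples with the same replicate number correlated between -0.0514 and 0.113 over the classes, so the numbers were not taken to pair the preparations; with the number as a replicate block 15, 19 and 7 calls were made in classes, subclasses and all stromal cells, and without the block 25 of the 42 differences between classes were called. Where a preparation was left out, its group kept 1, assumed to vary like the other group. Calls over all genes also moved in such fits, and without a Fracture preparation they were lost over all genes in several classes. The loss of member calls there is not particular to the members. With 2 preparations per group a permutation test cannot reach 0.05.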
